A study of Mus musculus with 4 samples.

Results

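Genes of the motile cilium were read out in the lateral habenula of C57BL/6 mice kept in groups or in social isolation. The members were the protein-coding genes whose symbols belong to the axonemal name families Cfap, Dnah, Dnaic, Dnai, Dnaaf, Rsph, Drc, Tekt and Spag, together with Foxj1, with at least 10 counts summed over the libraries. In all 79 symbols fitted these names, and 77 reached the minimum, out of 53465 gene identifiers measured. The remaining 2, Spag11a and Spag11b, which encode secreted epididymal peptides, had no count in any library. Of the 77 members 75 passed the low-count filter and were tested among 17528 genes, and the other 2 were Spag6 and Rsph6a. The filter works on counts per library and could in principle favour genes high in 1 group, so the counts and medians over the 75 are descriptions.

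The study had 4 libraries of poly(A) RNA, 2 from group-housed and 2 from socially isolated mice. No transgene, drug or allele is named in the labels, both groups share the strain and the tissue, and the sources used here do not state the age of the mice, how long isolation lasted or how many animals lie behind a library. The p-values therefore measure only how far these samples spread, and that spread may be technical. The series sets out to compare the transcriptome of this small epithalamic nucleus between the 2 housing conditions.

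A motile cilium beats through an axoneme of doublet microtubules arranged around a central pair. Outer and inner dynein arms slide the doublets, the nexin-dynein regulatory complex links neighbouring doublets, radial spokes connect them to the central apparatus, and tektins and other proteins line the lumen of the doublets. Dynein arms are put together in the cytoplasm by assembly factors before they are carried into the cilium. Foxj1 is the forkhead transcription factor that switches on many of these genes, and factors of the RFX family bind an X-box element in promoters of ciliary genes. In the brain, tufts of motile cilia are carried by the ependymal cells that line the ventricles, and the habenula borders the third ventricle.

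Total counts ran from 20897605 to 26428152 per library, and 24301 to 25616 identifiers had a count. A level is given as CPM, the gene's count scaled to a common library size, and 3 counts equalled 0.113 to 0.146 CPM. Markers of the lateral habenula were present in every library, with the habenular receptor gene Gpr151 at 396, 352, 425 and 426 CPM in group-housed replicates 1 and 2 and isolated replicates 1 and 2. Values per library are given in that order throughout. Over all genes, edgeR's quasi-likelihood test called 2 genes (0.0114%) higher and 0 (0.0%) lower in the isolated libraries at an adjusted p of 0.05, with 496 (2.83%) higher and 397 (2.26%) lower at an unadjusted p under 0.05. Among the cilia genes, isolated replicate 2 stood apart from the other 3 libraries, and each result below is given with that library in view.

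The promoters are shown first, because Foxj1 and the RFX factors act there and many members were at their highest in the same library. RefSeq (GRCm38.p6) listed promoters for 63 of the 77 members, 71 windows in all, each from 250 bases before a transcript start to 50 after it. The letters GTTGCC, shared by X-box elements, were searched on both strands, where the other strand reads GGCAAC. They stood in 27 of the 71 windows (38.0%), against 4111 of 32851 windows of the same length over all genes (12.5%). The looser form GTTNCC, which includes every GTTGCC, stood in 70.4% of the members' windows and 45.3% of all windows. The forkhead letters GTAAACA, read as TGTTTAC on the other strand, stood in 4 of the 71 (5.63%) and 3.65% of all. Base composition was not adjusted for, and a match is only a match of letters. The stretches below lie upstream of the start, in the direction of transcription, with GTTGCC or GTAAACA, on either strand, in capitals.

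Cfap298 carried 4 copies of GTTGCC, the most of any member, in 2 pairs on opposite strands, at chr16:90934884-90935057 on the minus strand. Cfap161 carried 3 within a short span, at chr7:83794853-83794925 on the minus strand. Spag16 had a pair on opposite strands at chr1:69826839-69826892 on the plus strand, and Tekt1 a pair next to its start at chr11:72361883-72361937 on the minus strand. Dnaic2 (chr11:114727373-114727418, plus strand) and Drc1 (chr5:30281362-30281392, plus strand) had a single copy close to the start. Cfap20 was the member with both kinds of letters (chr8:95434938-95435071, minus strand), and Cfap43 had the forkhead letters alone (chr19:47837390-47837436, minus strand).
Cfap298: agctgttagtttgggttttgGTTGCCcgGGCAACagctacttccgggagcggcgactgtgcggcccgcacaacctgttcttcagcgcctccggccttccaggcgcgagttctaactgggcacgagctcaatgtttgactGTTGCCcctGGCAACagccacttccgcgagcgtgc
Cfap161: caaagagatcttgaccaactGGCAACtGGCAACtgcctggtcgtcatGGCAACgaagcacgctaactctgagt
Spag16: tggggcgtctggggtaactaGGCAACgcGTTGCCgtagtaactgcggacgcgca
Tekt1: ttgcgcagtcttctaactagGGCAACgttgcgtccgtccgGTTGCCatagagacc
Dnaic2: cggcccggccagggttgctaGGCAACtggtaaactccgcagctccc
Drc1: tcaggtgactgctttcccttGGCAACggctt
Cfap20: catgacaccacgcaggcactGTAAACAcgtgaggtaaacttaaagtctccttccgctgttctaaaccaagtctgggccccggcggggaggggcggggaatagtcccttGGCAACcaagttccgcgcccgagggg
Cfap43: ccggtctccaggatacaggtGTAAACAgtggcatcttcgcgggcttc

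The gap between the isolated libraries was not larger in members whose windows held GTTGCC. The median ratio of CPM in isolated replicate 2 over isolated replicate 1 was 1.27 over the 24 tested members whose listed windows held GTTGCC and 1.58 over the 37 whose windows did not. Cfap298, with 4 copies, had a ratio of 1.11, whereas Spag16, with 2, had a ratio of 3.10, and Cfap161, with 3, had 1.87. These ratios are descriptions with no test.

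Over the 75 tested members, 68 had a log2 fold change above 0, isolated over group-housed, and 7 had one below 0. None passed the test in either direction. The smallest adjusted p was 0.663, for Dnaic2 (edgeR quasi-likelihood test, Benjamini-Hochberg over all tested genes). DESeq2, limma-voom and edgeR's exact test called 0 members as well. At an unadjusted p under 0.05, 20 members were higher and 0 lower, to be read against 2.83% and 2.26% of all genes. The members' median log2 fold change, isolated over group-housed, was 0.47 (range -0.18 to 1.18), beside 0.0033 over all tested genes. For 31 members (41.3%) each isolated library exceeded both group-housed ones, as happened for 17.4% of all genes, and for 1 member, Cfap36, they lay below them, as for 16.3% of all genes. The members share the same 4 libraries and are not independent, and more cilia-bearing cells in a piece of tissue and more RNA per such cell cannot be told apart in bulk RNA.

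For most members the higher isolated level lay in 1 library. Isolated replicate 2 was the highest of the 4 libraries for 63 members (84.0%), while it was so for 27.5% of all genes. Relative to each gene's own mean over the libraries, the members' median log2 level was -0.26 and -0.11 in the group-housed libraries, -0.10 in isolated replicate 1 and 0.53 in isolated replicate 2. Isolated replicate 1 was the highest library for 6 members, group-housed replicate 2 for 4 and group-housed replicate 1 for 2. Group-housed replicate 1 was the lowest library for 41 of the 75 members, as it was for 4695 of the 17528 tested genes. For 59 of the 75 members (78.7%) the gap between the 2 isolated libraries was larger than the difference between the group means, as it was for 63.1% of all tested genes. Some members stood higher in both isolated libraries, among them Dnaic2 and Cfap77, whose values follow.

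**Figure D1:**
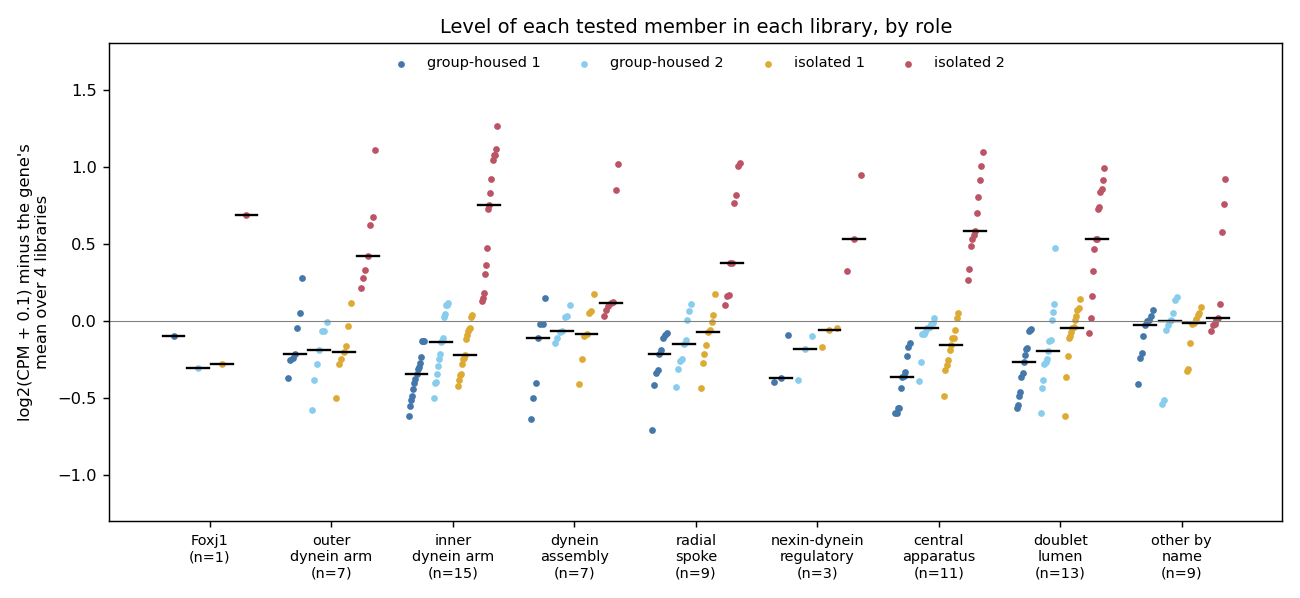
Level of each of the 75 tested members in each library, grouped by role. The vertical axis is log2(CPM + 0.1) minus that gene's mean over the 4 libraries, each point is a gene, and each bar is the median of a role in a library. In every role but dynein assembly and the genes placed by name only, the median of isolated replicate 2 lies clearly above those of the other 3 libraries.

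Foxj1 (ENSMUSG00000034227, on the minus strand of chromosome 11 in GRCm38, start 116330704 and end 116335399, with no exon shared with another annotated gene) measured 25.9, 22.4, 22.8 and 44.8 CPM. Isolated replicate 2 was thus high and the other 3 libraries lay close together, with isolated replicate 1 inside the group-housed range. The group means were 24.2 ± 2.46 and 33.8 ± 15.5 CPM (SD, n = 2 each), with a log2 fold change of 0.49 (SE 0.26, edgeR adjusted p = 0.979). The ratio of the 2 isolated libraries was 1.96 (95% exact interval 1.78 to 2.17, counting error only). Per kilobase of exon, Foxj1 had a mean level of 11.1 CPM, the second highest among members with a ciliary role after Cfap298.

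Outer arm dyneins generate most of the force of the beat, and the median log2 fold change over their 7 tested members was 0.50. Dnaic2, an intermediate chain, measured 7.55, 7.42, 9.78 and 12.1 CPM. Both isolated libraries lay above a tight group-housed pair, and the log2 fold change was 0.55 (SE 0.15, edgeR adjusted p = 0.663). Dnaic1, its partner intermediate chain, measured 9.06, 9.33, 7.69 and 11.8 CPM. Here isolated replicate 1 was the lowest library and replicate 2 the highest, so the groups overlapped and the log2 fold change was 0.08.

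The heavy chains Dnah5, Dnah9 and Dnah11 are the motors of these arms. Dnah11 measured 5.21, 4.51, 6.05 and 14.8 CPM (log2 fold change 1.10, SE 0.36, edgeR adjusted p = 0.798). Dnah5, picked out after its values were seen, measured 12.1, 10.8, 13.8 and 21.7 CPM. For both genes isolated replicate 1 lay just above the group-housed libraries and replicate 2 far above them. Dnah9 measured 13.0, 13.4, 12.9 and 24.5 CPM, with the first 3 libraries almost level. Dnah17, a heavy chain known from sperm, stood at 1.51, 1.17, 0.837 and 1.51 CPM and had the lowest log2 fold change of all members (-0.18).

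Inner arm dyneins shape the waveform, and their 15 tested members had the highest median gap between the isolated libraries among the roles with several members. All 15 were at their highest in isolated replicate 2, with a median ratio of 2.04 over isolated replicate 1 and a median log2 fold change of 0.53. Dnah3, a single-headed heavy chain, measured 5.41, 5.83, 6.05 and 18.8 CPM. Its 3 lower libraries differed little, and the isolated ratio was 3.11 (95% exact interval 2.59 to 3.74), with a log2 fold change of 1.14 (SE 0.43, edgeR adjusted p = 0.885). Dnah6 and Dnah10, picked out after their values were seen, measured 13.2, 13.7, 15.2 and 38.0 CPM and 13.1, 14.7, 13.0 and 36.8 CPM. Each stood more than 2-fold higher in isolated replicate 2 than in any other library.

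Cfap73, a subunit of the complex that modifies inner arms, measured 0.730, 0.622, 0.761 and 2.0 CPM (log2 fold change 1.03). These values rest on 15, 16, 20 and 53 counts. Cfap44, which tethers the heads of an inner arm to the doublet, measured 11.98, 18.9, 13.5 and 31.3 CPM. Its group-housed libraries were themselves apart, with isolated replicate 1 between them. Dnah1, the most abundant inner arm gene per kilobase, measured 28.5, 36.8, 35.0 and 46.4 CPM (log2 fold change 0.31).

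The 3 Dnah7 copies on chromosome 1 had small gaps between the isolated libraries. Dnah7a, picked out after its values were seen, measured 15.9, 17.3, 19.2 and 23.1 CPM, with each isolated library above both group-housed ones and a log2 fold change of 0.35 (SE 0.11, edgeR adjusted p = 0.833). Dnah7b measured 35.3, 41.8, 35.6 and 42.3 CPM, so that replicate 2 of each group was alike and the log2 fold change was 0.01 (SE 0.11). The ratio of the isolated libraries was 1.16 to 1.20 for the 3 copies, against a median of 2.03 for the 12 other Dnah genes. Among those 12, Dnah14, Dnah1 and Dnah8 had small gaps too, with ratios of 1.12, 1.32 and 1.36. The copies share sequence: 38.6% of the 50-base words of Dnah7a, 30.0% of those of Dnah7b and 46.8% of those of Dnah7c also occur in transcripts of other genes, mostly of each other. Their separate levels are uncertain to that extent. Their summed level in CPM was 66.2, 76.2, 70.6 and 83.7, where the 12 others summed to 112, 124, 124 and 248.

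Radial spokes carry signals from the central apparatus to the dyneins, and the median log2 fold change over their 9 tested members was 0.38. Rsph1, a subunit of the spoke head, measured 6.33, 6.69, 6.89 and 14.2 CPM (log2 fold change 0.69). Rsph9, another subunit of the spoke head, measured 12.1, 13.7, 12.6 and 14.1 CPM. Rsph1 was thus high in isolated replicate 2 alone, while the groups overlapped for Rsph9 and its log2 fold change was 0.04 (SE 0.12). Cfap206, a protein at the base of a spoke, measured 2.43, 2.41, 2.93 and 6.68 CPM (0.99, SE 0.36, edgeR adjusted p = 0.863). Rsph3a, a spoke stalk protein, measured 13.9, 13.4, 15.0 and 16.4 CPM, but 54.4% of its 50-base words also occur in Rsph3b. Rsph6a, not tested, stayed between 3 and 9 counts per library.

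All 3 members placed in the nexin-dynein regulatory complex had each isolated library above both group-housed ones, as happened for 17.4% of all genes. Subunits whose symbols fall outside the name families are not among them. Drc1, a scaffold of the complex, measured 13.5, 12.7, 13.96 and 18.0 CPM. Drc3 measured 11.2, 13.5, 13.9 and 20.9 CPM, and Drc7 3.65, 3.69, 4.30 and 9.43 CPM. In each, isolated replicate 1 cleared the higher group-housed library by little and replicate 2 by much more. The log2 fold changes were 0.29, 0.49 and 0.90, none of which passed (smallest edgeR adjusted p = 0.868).

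The central apparatus regulates the dyneins through the spokes, and its 11 tested genes were all at their highest in isolated replicate 2. Their median log2 fold change of 0.61 was the highest among the roles with several members. Cfap65 measured 13.9, 19.8, 16.8 and 42.2 CPM (log2 fold change 0.80). Cfap69 measured 25.6, 28.0, 26.3 and 34.1 CPM, and Cfap74 19.8, 22.7, 19.6 and 28.2 CPM, with smaller log2 fold changes of 0.17 each. In these 3 genes isolated replicate 1 lay within or below the group-housed range. Spag6, not tested, stayed between 2 and 4 counts per library, while its paralog Spag6l, picked out after its values were seen, measured 6.77, 7.70, 6.66 and 11.5 CPM.

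Proteins of the doublet lumen stabilise the microtubules, and 11 of 13 tested members had a log2 fold change above 0. Cfap77 had the largest log2 fold change of all members, 1.18 (SE 0.34, edgeR adjusted p = 0.716), at 1.12, 1.01, 1.75 and 3.06 CPM. Its groups did not overlap, and the values rest on 23, 26, 46 and 81 counts. Tekt1, a filament-forming tektin, measured 3.75, 4.12, 4.30 and 6.30 CPM. Tekt4 measured 2.43, 5.09, 3.84 and 3.70 CPM and Tekt5 9.93, 11.2, 10.6 and 9.85 CPM. Both were thus at their highest in group-housed replicate 2, with log2 fold changes of -0.02 and -0.05. Cfap20, an inner junction protein that is also found outside motile cilia, measured 36.0, 42.3, 39.5 and 45.4 CPM.

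Dynein assembly factors, which work in the cytoplasm, were mostly level across the libraries. Over their 7 tested members the median log2 fold change was 0.18 and the median isolated ratio 1.11. Cfap298, the most abundant of them per kilobase, measured 22.9, 23.6, 21.9 and 24.4 CPM. Cfap300 measured 8.62, 8.32, 9.13 and 8.94 CPM and Dnaaf5 11.9, 9.76, 10.05 and 11.5 CPM. In none of these 3 did a library stand apart. Dnaaf1 and Dnaaf3, picked out after their values were seen, were high in isolated replicate 2, with ratios of 2.88 and 2.20, at 0.779, 1.05, 0.837 and 2.41 CPM and 1.61, 2.60, 2.13 and 4.68 CPM.

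The 9 tested genes that share only the name families, with no settled place in the axoneme, gave a median log2 fold change of 0.06. Spag9, a scaffold of JNK signalling and vesicle transport, made up 37.4% of the members' summed CPM and measured 553, 551, 556 and 543 CPM. Spag7 measured 44.4, 47.8, 46.8 and 51.4 CPM. Cfap36, a binding partner of the small GTPase ARL3, measured 90.1, 91.4, 87.3 and 84.1 CPM, with a log2 fold change of -0.08. These abundant genes varied little between libraries. Cfap157, Cfap299 and Cfap58, picked out after their values were seen, were instead high in isolated replicate 2. Their isolated ratios were 2.17, 2.26 and 2.07, on 172, 93 and 58 summed counts, where the median ratio over the 9 was 0.978. Without the 9, the median log2 fold change of the 66 tested members with a role was 0.50, and they summed to 591, 655, 639 and 1007 CPM.

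**Figure D2:**
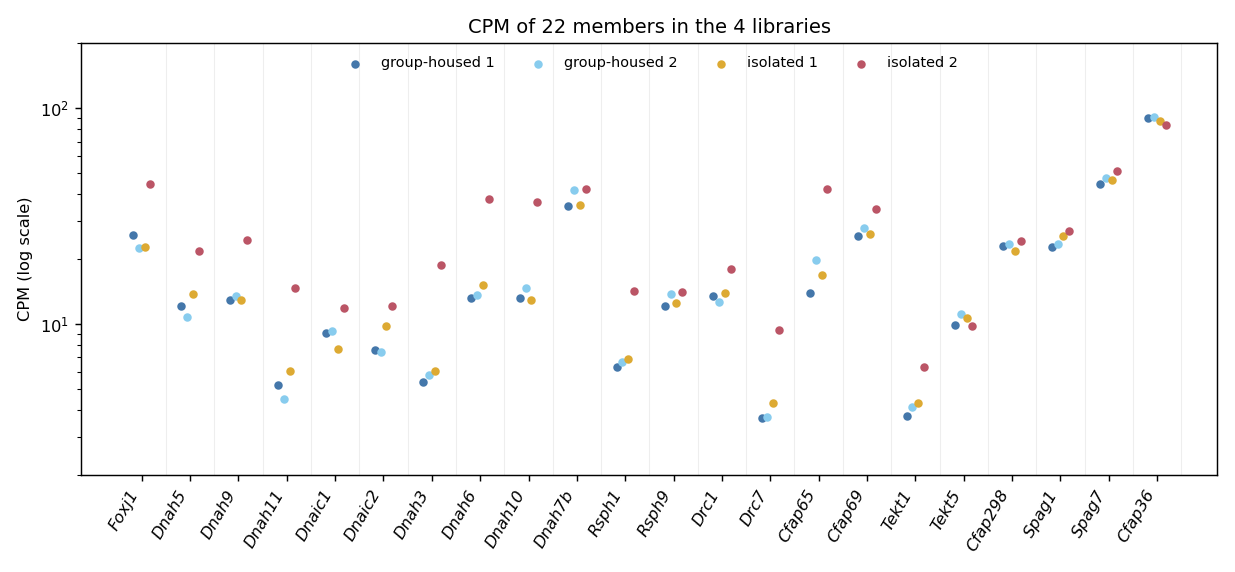
CPM of 22 members in the 4 libraries, on a log axis, with a point for each library. Most were named by rule, and Dnah5, Dnah6, Dnah10 and Spag1 were added after their values were seen. Isolated replicate 2 sits above the other points for most axonemal genes, such as Dnah3 at 18.8 CPM, while Tekt5, Cfap298 and Cfap36 show no such gap.

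The difference between the 2 isolated libraries was set beside that between the 2 group-housed ones. The members' median ratio of isolated replicate 2 over replicate 1 was 1.56 (range 0.922 to 3.15), and that of group-housed replicate 2 over replicate 1 was 1.08 (0.630 to 2.09). The 95% exact interval of the ratio, which covers counting error only, lay above 1 for 53 members and below 1 for 0 in the isolated pair. In the group-housed pair it lay above 1 for 14 and below 1 for 2. The share of all genes with such intervals was not counted, so these counts do not set the members apart from other genes. The isolated ratio exceeded 1.5 for 42 members, 2 for 24 and 2.5 for 10, where 6.33%, 2.23% and 0.981% of all tested genes exceeded these values.

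Other genes of motile cilia outside the name families showed the same gap between libraries. Of 50 measured genes of this list, 46 had a log2 fold change above 0, and 44 were highest in isolated replicate 2. For 21 (42.0%) each isolated library exceeded both group-housed ones, beside 17.4% of all genes. The list's log2 fold changes ran from -0.09 to 1.35 around a median of 0.43. None was called in either direction, and 13 were higher at an unadjusted p under 0.05. Hydin, a giant protein of the central apparatus, measured 9.45, 9.87, 11.7 and 28.0 CPM. Iqca measured 2.34, 2.45, 3.23 and 7.17 CPM and Nme9 1.56, 1.24, 2.09 and 3.51 CPM. All 3 had each isolated library above both group-housed ones, with log2 fold changes of 1.04, 1.12 and 1.01. These 3 were named for the smallest p in the list, a choice that favours genes whose groups lie apart.

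Genes of intraflagellar transport, the traffic that builds motile and primary cilia alike, showed little gap between the isolated libraries. Over their 29 tested genes the log2 fold changes ran from -0.13 to 0.24 around a median of 0.07. The median isolated ratio was 1.02, and 13 genes (44.8%) were highest in isolated replicate 2, beside 27.5% of all genes. For 12 of the 29 (41.4%) each isolated library exceeded both group-housed ones, a share like that of the members, beside 17.4% of all genes. None was called, and 4 were higher at an unadjusted p under 0.05. Dync2h1, the heavy chain of the retrograde motor, measured 96.4, 102, 109 and 111 CPM. Its light intermediate chain gene Dync2li1 measured 19.5, 19.7, 21.9 and 23.5 CPM, and Ttc30b, a subunit of the transport train, 15.5, 16.4, 18.5 and 19.3 CPM. In these 3 genes the isolated libraries lay close together and above the group-housed pair, with log2 fold changes of 0.15, 0.21 and 0.24. They too were named for the smallest p in their list.

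**Figure D3:**
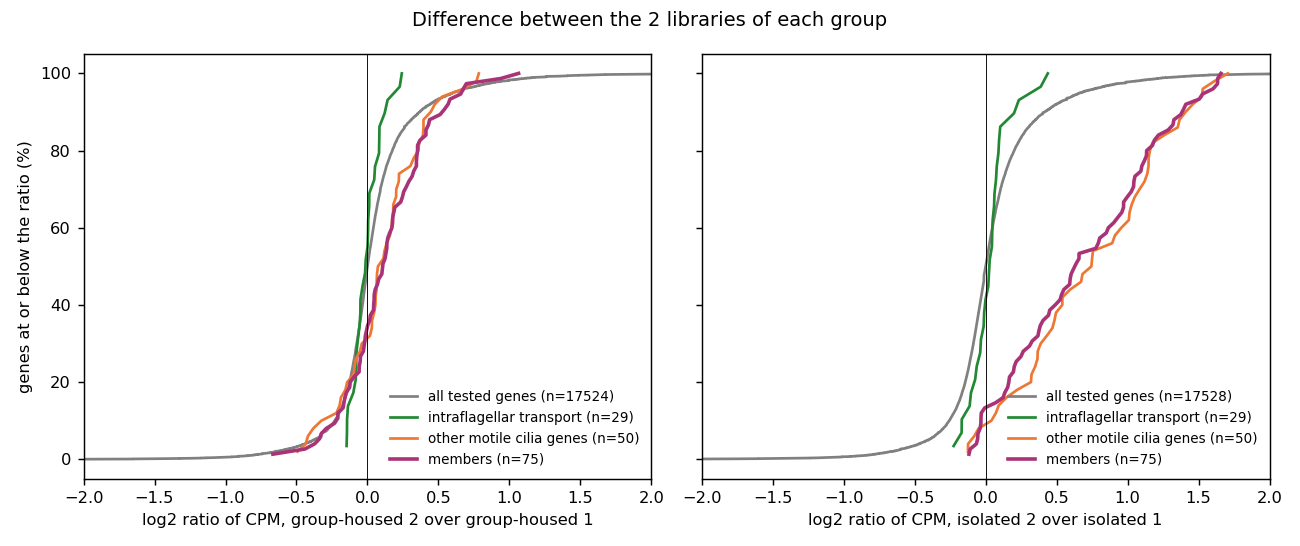
Cumulative share of genes at or below a given log2 ratio of CPM between the 2 libraries of a group, group-housed on the left and isolated on the right. Lines stand for all tested genes, intraflagellar transport genes, other motile cilia genes and members. In the isolated pair the member line is shifted to the right, with a median ratio of 1.56, and in the group-housed pair it lies near the line of all genes, with a median ratio of 1.08.

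The comparison of the groups was therefore repeated without each library. Without isolated replicate 2, 0 members were called, 47 of 75 were higher, and the median log2 fold change was 0.066, beside 0.080 for the intraflagellar transport genes. Without isolated replicate 1 it was 0.76, and 28 of 75 members (37.3%) passed as higher in edgeR's quasi-likelihood test, where 151 of 18089 genes (0.835%) did. In that fit the lone isolated library is assumed to vary like the group-housed pair. Leaving out group-housed replicate 1 or 2 gave medians of 0.39 and 0.52 and no call among members.

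The 28 genes that passed without isolated replicate 1 came from most parts of the axoneme. They were 8 of 15 inner arm, 3 of 7 outer arm, 6 of 11 central apparatus, 5 of 13 doublet lumen, 3 of 9 radial spoke and 2 of 3 nexin-dynein regulatory complex genes, together with Foxj1. The log2 fold changes of the 28 in that fit ran from 0.66 to 1.74, the highest being that of Dnah3. Outside the 28, the assembly factors Dnaaf1 and Dnaaf3 had 1.378 and 1.125, on 129 and 280 summed counts. The remaining assembly factors lay between 0.067 and 0.243. Of the 9 genes placed by name only, Cfap157 and Cfap299 had 1.379 and 1.059, on 172 and 93 summed counts. The rest of these lay between -0.11 and 0.743. Without isolated replicate 2 the same 28 genes had log2 fold changes from -0.45 to 0.72, with a median of 0.09. Of the 28, 18 were above 0 there, beside 47 of all 75 tested members. The 28 were selected against the same group-housed libraries, which favours higher values in this second fit. Foxj1 went from 0.89 (edgeR adjusted p = 0.00322) without isolated replicate 1 to -0.08 without isolated replicate 2.

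**Figure D4:**
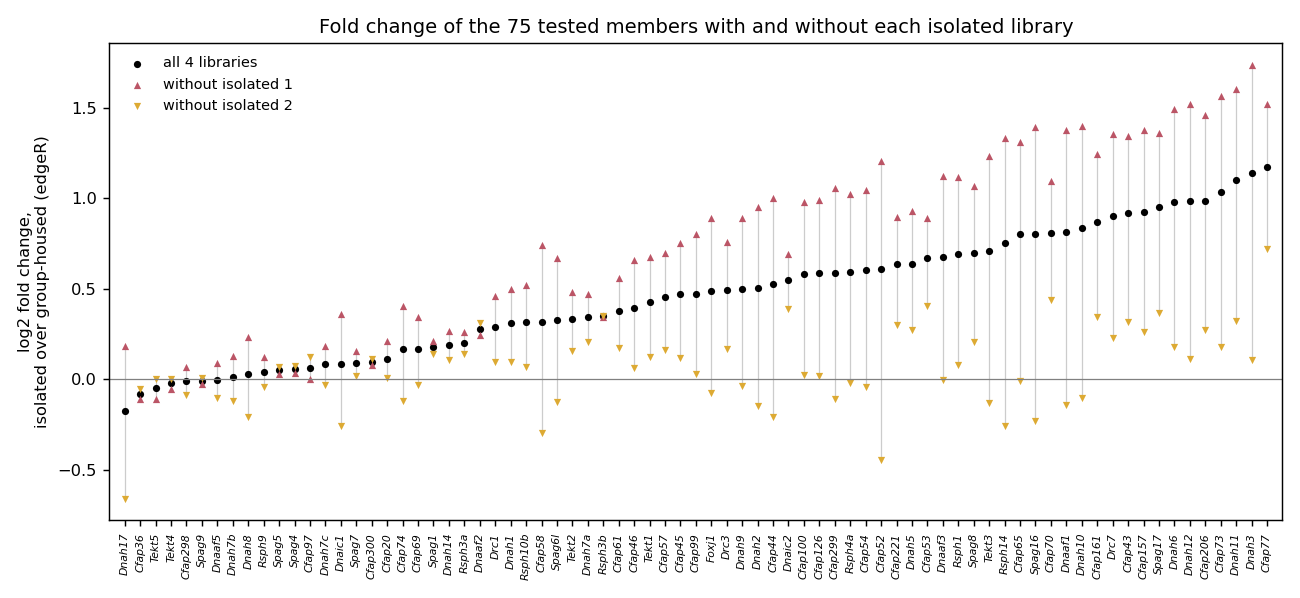
Log2 fold change of the 75 tested members, isolated over group-housed, with all 4 libraries (black) and without isolated replicate 1 (red) or isolated replicate 2 (yellow), ordered by the value with all 4. Without isolated replicate 2 the points gather around 0, with a median of 0.07, and without isolated replicate 1 the median is 0.76.

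Markers of cell types that the tissue could hold were followed across the same libraries. Of 8 ependymal markers that are not parts of cilia, 7 were tested and 6 of them were highest in isolated replicate 2, where their median log2 level relative to each gene's mean was 0.54. For the other tested marker each isolated library lay below both group-housed ones (log2 fold change -0.17), as for 16.3% of all genes. Cd24a measured 9.45, 10.3, 11.6 and 20.3 CPM, Rarres2 12.9, 12.2, 13.5 and 21.3 CPM and Vim 39.1, 41.9, 32.0 and 62.6 CPM. Cd24a, Rarres2 and Vim were thus high in the same library as the cilia genes. The list summed to 716 and 697 CPM in the group-housed and 689 and 776 CPM in the isolated libraries, most of it Nnat, which neurons also express, and Mia had at most 1 count in any library. Their part in the members' result was not tested.

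Choroid plexus markers, from the epithelium that also carries cilia at the ventricle, were mostly highest in group-housed replicate 2. Of 14 tested, 8 were highest in group-housed replicate 2 and 4 in isolated replicate 2. The list summed to 505 and 609 CPM in the group-housed and 437 and 470 CPM in the isolated libraries, with Kcne2 at 0 in group-housed replicate 1. Ttr, the carrier protein made in bulk by that epithelium, measured 3.41, 102, 22.03 and 26.9 CPM. The library richest in Ttr was therefore not the library richest in cilia genes. The list's median ratio of isolated replicate 2 over isolated replicate 1 was 1.40, beside 1.56 for the cilia members. That of group-housed replicate 2 over replicate 1 was 2.28, beside 1.08 for the cilia members. The part of this epithelium in the members' values was not tested.

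Markers of the neighbouring medial habenula differed between the groups and little within them. All 10 had a higher mean in the isolated libraries (median log2 fold change 0.42). For 9 each isolated library exceeded both group-housed ones, as happened for 17.4% of all genes. The list summed to 1286 and 1183 CPM in the group-housed and 1633 and 1655 CPM in the isolated libraries, with no marker at 0. Chrnb3 and Slc5a7, the 2 genes called over the whole series, belong to it. The median ratio of the isolated libraries was 1.01 for this list and 1.56 for the cilia members, and its part in the members' values was not tested.

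Markers of the neighbouring thalamus were at their lowest in isolated replicate 2 for 9 of 9 genes, with summed levels of 937 and 1054 CPM in the group-housed and 821 and 669 CPM in the isolated libraries. Astrocyte markers summed to 3869 and 3659 CPM in the group-housed and 3524 and 3514 CPM in the isolated libraries, with no marker at 0. Of the 7 astrocyte markers, 6 had a log2 fold change below 0. In all 5 were highest in group-housed replicate 1 and 2 in isolated replicate 2. Gfap, also expressed by some cells of the ventricular wall, measured 315, 310, 271 and 416 CPM and was 1 of those 2. The subcommissural organ gene Sspo measured 21.04, 21.5, 17.2 and 21.7 CPM, and the pineal gene Crx had no count. The part of tissue composition in the members' values was not tested.

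Many members overlap other annotated genes. Exons of 34 members overlap those of another annotated gene, on the opposite strand for 32 and on the same strand for 5. The sources used here do not state whether counting used the strand. The median log2 fold change of the 42 tested members with no overlap was 0.48, and 35 of them were highest in isolated replicate 2. Of the genes named above, Dnah3, Dnah6, Dnah9, Dnah10, Dnah17, Dnah1, Dnaic1, Dnah11, Cfap43, Cfap65, Cfap73, Cfap74, Cfap157, Cfap298, Cfap299, Dnaaf1, Dnaaf3, Dnaaf5, Dnah8, Dnah14, Spag1, Spag6, Rsph3a, Rsph3b, Rarres2, Nnat and Hydin overlap another gene, so their counts may hold reads of that gene.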

How the data were processed

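RNA was extracted with Trizol and made into libraries with a stranded Illumina poly(A) kit, per the labels' protocols. CASAVA, TopHat2 2.1.1, HTSeq, edgeR and the build GRCm38 are named in the submitters' processing notes, with no role for each. The sources used here do not state the annotation release, the use of strand in counting or any pooling of animals. The authors deposited raw read counts per Ensembl gene, which every value here rests on. The authors also deposited a normalised signal per library, each count multiplied by a constant of that library (0.0387 to 0.0499), used here only for a check of the counts.

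Symbols, exons and overlaps came from a GENCODE annotation of GRCm38, in which 53360 of the 53465 identifiers had a symbol. The 105 without one held 0.0253 to 0.0281% of a library's counts. Groups were compared by the quasi-likelihood test of edgeR 4.0.16 under R 4.3.3 (2-sided, TMM scaling with factors of 0.983 to 1.02, filterByExpr, no covariate, all 4 libraries), and p-values were adjusted by Benjamini-Hochberg over the 17528 tested genes, with 0.05 as the threshold. Counts varied between libraries of a group by a common biological coefficient of 7.20%, with 2 residual degrees of freedom. An exact permutation test of 2 against 2 cannot go below a 2-sided p of 0.333 and was not used. CPM came from the scaled library sizes, CPM per kilobase from the merged exon length of a gene, and standard errors from the log2 fold change and the F statistic. Ratios of libraries have exact (Clopper-Pearson) 95% intervals, which cover counting error only. Centred levels are log2(CPM + 0.1) minus the mean over the libraries. Shared sequence was counted in words of 50 bases over all annotated transcripts. The fit was tested on simulated data.

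Members, roles and the other lists were chosen with earlier results of these data known. Genes were named by a rule, up to 3 members per role of highest mean CPM per kilobase, Foxj1, the 5 members of largest and the 5 of smallest log2 fold change, any member called, and the 3 genes of smallest p in each of the lists of other motile cilia and intraflagellar transport genes. Alternatives were other scalings, filters and tests, a replicate block, members with a role only, and leaving out each library.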

Additional observations from a re-analysis of the deposited data

How the results depend on the processing

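Members were called in the fit without isolated replicate 1 (28 higher) and in no other setting, and the direction of the members' median did not change in any setting. With 2 libraries a group, each value rests on few samples, and the cause of the changes listed here was not tested. Over all genes, 15 were called higher with no filter on low counts, 42 higher and 11 lower with DESeq2 (version 1.42.0), and 67 higher and 15 lower with edgeR's exact test. A block for the replicate number of the titles gave 52 higher and 12 lower, and 0 members. The correlation of the deviations of same-numbered libraries was 0.141, and the numbers were not taken as pairs, since the titles give no shared animal or day. Leaving out each library in turn gave 0 to 151 genes called higher and 0 to 70 lower. In these 4 fits the members' median log2 fold change ran from 0.066 without isolated replicate 2 to 0.76 without isolated replicate 1. That of the other motile cilia genes ran from 0.050 to 0.761. The isolated libraries left lay above all group-housed ones left for 33 to 67 of 75 members (44 to 89.3%) and below them for 3 to 11 (4 to 14.7%). Over all genes tested in these fits, 31 to 35.9% lay above and 31.4 to 34.9% below. Restricted to members with a role, both isolated libraries lay below for 0. Scaling by total counts gave the intraflagellar transport genes a median of 0.094, with the median of all genes at 0.02.

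Of 304 values of the 38 named genes under the settings with all 4 libraries, 298 kept their direction and 6 reversed, and none was called. These were Cfap298 (0.013), Dnaaf5 (0.018) and Spag9 (0.013) with total counts, Dnaaf5 (0.0095) and Tekt4 (0.048) with limma-voom (version 3.58.1), and Tekt4 (0.032) with the replicate block, all near 0 with the settings of the report. Leaving out a library reversed 22 of 152 values. The ranges of log2 fold change over these fits were -0.078 to 0.893 for Foxj1, -0.16 to 0.14 for Dnaaf5, -0.66 to 0.19 for Dnah17, -0.12 to 0.13 for Dnah7b, -0.044 to 0.128 for Rsph9, -0.087 to 0.067 for Cfap298 and -0.43 to 0.62 for Tekt4. They were -0.129 to 0.034 for Tekt5, -0.21 to 1.005 for Cfap44, -0.0100 to 1.31 for Cfap65, -0.032 to 0.342 for Cfap69, -0.12 to 0.40 for Cfap74, -0.038 to 0.891 for Dnah9, -0.26 to 0.36 for Dnaic1 and -0.025 to 0.0096 for Spag9.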

Other observations

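Regulators of multiciliation, the switch that lets a cell grow many motile cilia, ranged from near the detection limit to well detected in these libraries. Of 11 listed genes 7 were tested, with a median log2 fold change of 0.37, isolated over group-housed, and 5 of them were highest in isolated replicate 2. Myb measured 2.48, 2.49, 1.67 and 4.87 CPM in group-housed replicates 1 and 2 and isolated replicates 1 and 2, and Trp73, a p53-family factor upstream of Foxj1, 1.51, 1.75, 1.45 and 3.58 CPM. Both were thus high in the library that was highest for most axonemal genes. Mcidas and Foxn4, which act early in the formation of these cells, were each at 0 in group-housed replicate 1 and isolated replicate 1 and at 0.113 CPM in isolated replicate 2, a level of 3 counts. Rfx2 measured 5.41, 5.83, 4.98 and 8.11 CPM, while Rfx3, a broadly expressed factor of the same family, measured 39.6, 38.5, 41.0 and 39.9 CPM. None of the 7 was called (smallest edgeR adjusted p = 0.979), and these genes were picked for mention after their values were seen.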
